A study of Arabidopsis thaliana with 39 samples.

Results

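The genes described here are the 150 Arabidopsis genes whose excess in L-Glu-treated over urea-treated seedlings was largest at 12 h relative to what was left of it at 24 and 48 h. They were chosen by a rule on the normalized values of 20001 measured genes. For each gene, the mean of log2(value + 1) over the 3 urea libraries was subtracted from that over the 3 L-Glu libraries at each time. A gene was kept when its mean value in L-Glu at 12 h was at least 10 and its difference at 12 h was at least 1, which left 3464 candidates. The 150 with the highest difference at 12 h minus the larger of the differences at 24 and 48 h were taken. The 12, 24 and 48 h values of L-Glu and urea therefore chose the genes and are given as a description without a test. The 6 h libraries, all SA libraries and the mock libraries had no part in the choice.

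The libraries came from whole Col-0 seedlings, the wild type, grown for 14 days in liquid culture with sucrose under continuous light. There were 13 groups of 3 libraries. One group received distilled water and was taken at 0 h (mock), and the others received 20 mM urea, 20 mM L-glutamic acid (L-Glu) or 1 mM salicylic acid (SA) and were taken at 6, 12, 24 and 48 h. Urea served as the control for L-Glu at the same dose and time, and no water group later than 0 h was analysed here. The dose of SA differed from that of L-Glu, so values of these treatments side by side are not at matched doses. Nothing in the labels ties the 3 replicates of a group to different cultures. The p-values describe the spread between these libraries, which may be technical. In whole seedlings, fewer cells of a type and less RNA per cell cannot be told apart.

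Glutamate is the product of ammonium assimilation and the amino donor for most other amino acids. It also acts as a signal in plants, where extracellular glutamate opens glutamate receptor-like channels and raises cytosolic calcium, as it does on wounding. Salicylic acid is the hormone of defence against biotrophic pathogens and acts through the receptor NPR1 on genes such as PR1. Urea is taken up and hydrolysed to ammonium, so the control seedlings also received nitrogen.

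Promoters are shown first because the set was examined for shared promoter letters. The 250 bases before the annotated gene start were read from the RefSeq assembly TAIR10.1 by gene identifier for 149 of the 150 genes. The evening element, AAATATCT on either strand, is found in promoters of many clock-regulated genes with evening peaks. It occurred in 14 of the 149, a share of 9.4%, against 4.93% of the 19886 promoters of all measured genes with a match. Many known motifs were searched, and this one had the widest excess among them over the 250 bases. No motif share was tested. The 4 sequences that follow belong to 2 pairs of related genes in the set, and the capitals mark the element. AZI1 and EARLI1 encode lipid-transfer family proteins of systemic defence and are direct neighbours on chromosome 4, and their element begins 50 and 60 bases before the gene start. GASA1 and AT5G14920 encode gibberellin-regulated proteins, and the element begins 28 and 120 bases before the gene start. The sequences run 5′ to 3′ along each gene's own strand.
AZI1, chr4:7401952-7402201, minus strand: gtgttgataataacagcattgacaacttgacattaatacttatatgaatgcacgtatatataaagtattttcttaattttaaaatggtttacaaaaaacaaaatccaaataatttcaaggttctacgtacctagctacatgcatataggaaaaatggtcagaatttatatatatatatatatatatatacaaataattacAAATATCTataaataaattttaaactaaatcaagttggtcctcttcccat
EARLI1, chr4:7406995-7407244, minus strand: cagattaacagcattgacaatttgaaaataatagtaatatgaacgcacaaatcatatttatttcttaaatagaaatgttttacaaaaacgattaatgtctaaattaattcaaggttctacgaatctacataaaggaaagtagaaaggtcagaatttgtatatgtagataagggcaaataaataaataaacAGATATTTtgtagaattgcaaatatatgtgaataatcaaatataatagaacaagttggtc
GASA1, chr1:28442436-28442685, minus strand: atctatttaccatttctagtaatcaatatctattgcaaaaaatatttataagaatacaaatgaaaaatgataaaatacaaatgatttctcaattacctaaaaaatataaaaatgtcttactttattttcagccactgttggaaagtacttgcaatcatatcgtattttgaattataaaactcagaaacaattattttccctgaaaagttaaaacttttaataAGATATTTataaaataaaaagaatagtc
AT5G14920, chr5:4825891-4826140, plus strand: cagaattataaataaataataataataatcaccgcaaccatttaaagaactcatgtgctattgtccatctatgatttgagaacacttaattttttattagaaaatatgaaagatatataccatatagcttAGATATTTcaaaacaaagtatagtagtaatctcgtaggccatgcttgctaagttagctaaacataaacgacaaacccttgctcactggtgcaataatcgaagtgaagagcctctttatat
A match is a description of letters in this window and not a binding site. Genes in the set were also richer in A and T over these 250 bases, with 71.1% against 68.5% in all promoters, and its part in the motif shares was not tested. The W-box core, TTGACC or TTGACT, stood in 28.2% of the promoters against 28.7% of all. The TGA core, TGACGT, stood in 8.72% against 8.14%, and P1BS, GNATATNC, in 5.37% against 5.44%. The auxin response element TGTCTC stood in 6.71% against 10.6%. The CAMTA element CGCGT had 4.7% against 7.45%, and ABRE, ACGTGTC or ACGTGGC, 5.37% against 7.15%. The site II motif, TGGGCC or TGGGCT, was less frequent, with 6.71% against 22.1%, and so was the G-box CACGTG with 3.36% against 7.3%.

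Value sums per library ran from 2445645 to 5886170, and since the values are not whole reads, the depth behind them is unknown. No library held the same values as another of its group. Within L-Glu at 6 h, replicate 2 stood apart: the median log2 value of the 150 genes was 5.08 in it and 6.29 and 6.13 in replicates 1 and 3. The main counts that rest on this library are given with and without it. Markers of photosynthetic shoot tissue, 12 genes that include RBCS1A and RCA, were present in every group. Their summed value was 151823 to 161046 in urea and 112632 to 138313 in L-Glu at 6 h. By 24 h the sums were 107089 to 123203 in urea and 6019 to 12156 in L-Glu, and at 48 h 68324 to 71763 and 2272 to 2506. The sum of 14 root markers was 3913 to 5113 in L-Glu at 6 h and 16570 to 21211 at 48 h, against 2805 to 3376 in urea at 48 h. Nearly all of that rise was the single gene PYK10: without it the other 13 summed to 498 to 750 in L-Glu and 553 to 748 in urea at 48 h. The sum of 10 vascular and guard cell markers was 1006 to 1097 in L-Glu and 1937 to 1991 in urea at 12 h, and 537 to 706 and 1660 to 1980 at 24 h. None of these markers was at 0 in an L-Glu or urea group, and their part in the course of the 150 genes was not tested.

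The rise and fall that the rule selected was steep. The median difference between L-Glu and urea over the 150 genes was 1.07 log2 units at 6 h, 2.00 at 12 h, 0.14 at 24 h and -0.55 at 48 h. The other 3314 candidates, which passed the same limits at 12 h, had medians of 0.73, 1.98, 2.45 and 1.5 at the same times, and the medians of all 20001 genes lay between -0.10 and 0. At 12 h, 25.8% of all genes were called higher in L-Glu than in urea and 21.9% lower, and 6.77% were called as rising and 10.9% as falling in their difference from 12 to 24 h. Nothing is read from these shares, since the rule used the same values.

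**Figure D1:**
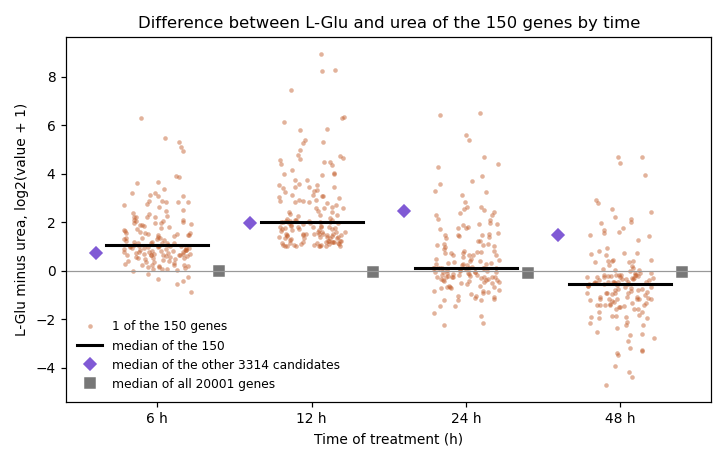
Difference between L-Glu and urea (log2 of the value plus 1, means of 3 libraries each) at 6, 12, 24 and 48 h for each of the 150 genes, with the medians of the 150, of the other 3314 candidates and of all 20001 genes. The median of the 150 goes from 2.00 at 12 h to 0.14 at 24 h and -0.55 at 48 h, while that of the other candidates goes from 1.98 to 2.45 and 1.5; the 12, 24 and 48 h values chose the genes.

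For most of the set the fall lay in the L-Glu libraries and not in a rise in urea. Means in this paragraph are of log2(value + 1). The mean in L-Glu at 24 h was below that at 12 h for all 150 genes. The median change was -1.51 log2 units, with a range of -3.76 to -0.05. In urea the median change over the same interval was 0.22, and 20 of the 150 genes rose there by at least 1. By 48 h the excess had turned into a deficit for many genes: 112 of the 150 had a lower mean in L-Glu than in urea, and 101 had a lower mean in L-Glu at 48 h than in mock seedlings at 0 h, 61 of them by at least 1 log2 unit. The difference was highest at 12 h for 144 genes and already higher at 6 h for the other 6. At 24 h it was still at least 1 for 47 genes, and at 48 h for 19. The score that ordered the genes ran from 1.32 to 3.53. Just inside the limit were AT2G32795 and HRS1 at 1.33 and AT3G45530 at 1.32, and just outside were AT1G75770 and AT5G53500 at 1.32 and ASG1 at 1.31.

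**Figure D2:**
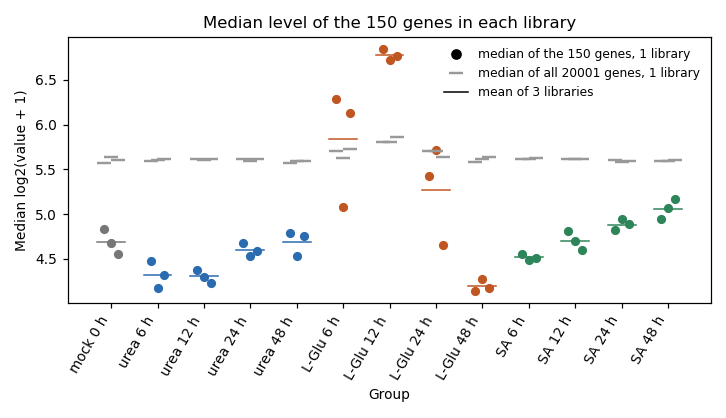
Median log2(value + 1) of the 150 genes and of all measured genes in each of the 39 libraries, by treatment and time. The 150 genes lie highest in L-Glu at 12 h, fall to between 4.14 and 4.27 in L-Glu at 48 h, and L-Glu replicate 2 at 6 h lies at 5.08 below 6.29 and 6.13.

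The highest values in L-Glu at 12 h belonged to genes of unlike function. MIOX2, which opens myo-inositol to glucuronate for wall polysaccharides, had a mean of 4650 ± 896 (SD, n = 3). WRKY70, a transcription factor between salicylate and jasmonate signalling, had 4144 ± 625. CYP707A3, a hydroxylase that breaks down abscisic acid, had 3885 ± 659. The transcription factor RAV1 had 2929 ± 436, the systemic immunity protein AZI1 2786 ± 462 and the ethylene synthesis enzyme ACS11 1793 ± 277. Whether the normalized values are per gene length is not stated, so levels of different genes are not compared further. At the other end, 23 of the 150 genes had a mean below 20 in L-Glu at 12 h, where the log2(value + 1) scale understates a change.

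At 6 h, in libraries that the rule did not use, the rise had already begun. In L-Glu against urea, 78 of the 150 genes (52%) were called higher and none lower, where 8.36% of all genes were called higher and 3.15% lower (limma, Benjamini-Hochberg adjusted p below 0.05 over 20001 genes). At an unadjusted p below 0.05 the counts were 103 higher and 0 lower. Of the other candidates 40.6% were called higher. Without L-Glu replicate 2 the count was 92 higher and 0 lower, with 75 genes called both ways; WAK1, CRK7 and AT5G38565 were lost. It was 48 without replicate 1 and 50 without replicate 3. In SA against urea at 6 h, 25 of the 150 (16.7%) were higher and 19 (12.7%) lower, against 15.9% and 13.5% of all genes. Those shares lie near those of all genes, while of the other candidates 30.2% were higher and 6.13% lower. In L-Glu against SA at 6 h, 87 (58%) were higher and 7 (4.67%) lower, against 17.4% and 15.9% of all genes, and without L-Glu replicate 2 the counts were 90 and 7. The first and second comparisons share the urea libraries.

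**Figure D3:**
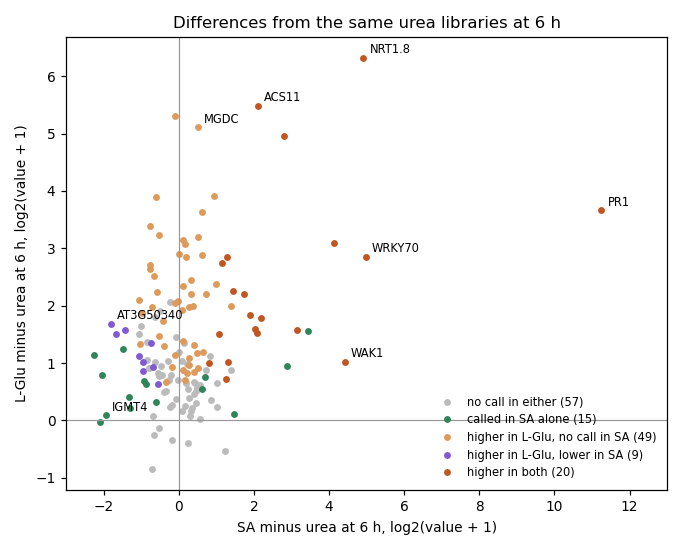
Log2 difference of L-Glu from urea (vertical) against that of SA from urea (horizontal) at 6 h for the 150 genes, coloured by call. Both axes share the same 3 urea libraries. Of the 150 genes, 20 were higher in both treatments, 9 higher in L-Glu and lower in SA, 49 called only in L-Glu, 15 called only in SA and 57 in neither; without L-Glu replicate 2 these counts were 23, 10, 59, 14 and 44.

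The role groups that follow were picked after the members had been seen, so their counts are a description. At 6 h, 52% of the 150, 40.6% of the other candidates and 8.36% of all genes were higher in L-Glu than in urea. In L-Glu against SA these shares were 58%, 33.5% and 17.4%, and in SA against urea 16.7%, 30.2% and 15.9%. The first group is that of nitrogen transport. Of 6 nitrate, amino acid and peptide transporters in the set, 5 were higher in L-Glu than in urea at 6 h. The same 5 were higher in L-Glu than in SA (6 of 6 without L-Glu replicate 2). AT1G33440 and AT2G28120, annotated only as major facilitator proteins, are not counted among the 6. Their L-Glu minus urea differences at 6 h were -0.02 and 1.5. NRT1.8, which removes nitrate from the xylem sap, had values of 0.156, 1.19 and 4.99 with urea at 6 h, 336, 68.3 and 329.9 with L-Glu and 84.4, 60.6 and 77.1 with SA. All L-Glu and SA libraries lay above the urea libraries, and L-Glu replicate 2 lay within the SA range. The L-Glu minus urea difference was 6.32 (SE 0.553, adjusted p = 1.86e-09) by limma, and SA minus urea was 4.91 (SE 0.553, adjusted p = 1.72e-08). Later in L-Glu it reached 919.6, 1007 and 896 at 12 h and went down to 139, 389 and 114 at 24 h and 109.9, 314 and 117 at 48 h. It was also 1 of 5 genes lower in urea at 6 h than in mock, where it had a mean of 16.7 ± 5.05 (SD, n = 3), with a difference of -2.80 (SE 0.553, adjusted p = 0.00388). The control was therefore below the mock level for this gene, and in that comparison treatment and time cannot be told apart.

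NRT1.7, which loads nitrate into the phloem of older leaves, had 296, 275 and 237 in urea at 6 h and 1048, 450.4 and 736 in L-Glu, with every L-Glu library above every urea library. The difference was 1.39 (SE 0.249, adjusted p = 1.53e-04) by limma, and SA minus urea was 0.12 (SE 0.249, adjusted p = 0.754). In L-Glu it stood at 889.7, 909.6 and 908 at 12 h, 111, 164 and 89.7 at 24 h and 18.17, 41.2 and 29.5 at 48 h, which is well below the urea level. NRT1:2, a transporter of nitrate and abscisic acid, had 387, 337 and 353 with urea at 6 h, 1081, 440 and 790.1 with L-Glu and 184, 191 and 177 with SA. These 3 groups did not overlap, and limma called it higher in L-Glu, with a difference of 1.01 (adjusted p = 2.56e-04), and lower in SA, with -0.96 (adjusted p = 1.81e-04). NRT2:1, the main high-affinity nitrate uptake transporter of roots, was near 0 in urea at 6 h, with 0, 1.09 and 0.998, and had 26.4, 16.3 and 27.5 in L-Glu and 41.6, 32.4 and 39.01 at 12 h. Its difference at 6 h was 3.89 (SE 0.514, adjusted p = 1.79e-06) by limma. OPT6, an oligopeptide and glutathione transporter, also rose, by 1.47 (adjusted p = 9.90e-05). AAP6, an amino acid permease, had a difference of 0.26 (adjusted p = 0.501) and was not called.

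Genes of the phosphate starvation response formed a second group. Of 6, namely 4 enzymes of lipid and phosphodiester turnover, a gene of a phosphate exporter family and the repressor HRS1, 5 were higher in L-Glu than in urea at 6 h and all 6 were higher in L-Glu than in SA. MGDC makes galactolipid for membranes. Its values were 5.80, 3.25 and 14.99 with urea at 6 h, 399, 109.8 and 425 with L-Glu and 19.2, 10.6 and 4.71 with SA. L-Glu lay above both other groups in every library, and SA and urea overlapped. Limma gave L-Glu minus urea as 5.11 (SE 0.604, adjusted p = 2.79e-07) and SA minus urea as 0.51 (SE 0.604, adjusted p = 0.572). It stayed at 462, 479 and 476 at 12 h and 304, 332 and 141 at 24 h and came down to 26.1, 30.03 and 24.26 at 48 h.

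PEPC1, a phosphatase of phosphocholine and phosphoethanolamine, rose by 3.63 (SE 0.373, adjusted p = 2.20e-08) at 6 h, and at 12 h it had 509, 544 and 461 in L-Glu and 25.2, 41.5 and 28.6 in urea. PLDP2, a phospholipase D, rose by 2.84 (adjusted p = 5.13e-08) in L-Glu and by 1.28 (adjusted p = 0.00155) in SA. GDPD3, a glycerophosphodiester phosphodiesterase, rose by 2.04 (adjusted p = 0.0174), and AT1G35350, of the EXS domain family that holds phosphate exporters, by 1.99 (adjusted p = 6.35e-06). HRS1, a nitrate-induced repressor of phosphate starvation genes, had a difference of 1.01 (adjusted p = 0.237) and was not called against urea. The median difference of these 6 genes was 2.44 at 6 h, 3.04 at 12 h, 1.51 at 24 h and 0.24 at 48 h.

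**Figure D4:**
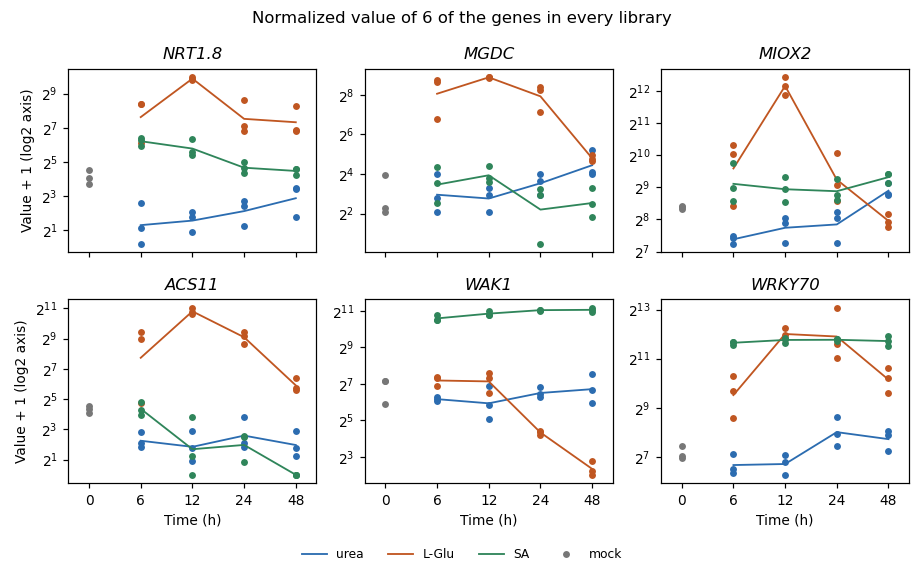
Value plus 1 on a log2 axis of NRT1.8, MGDC, MIOX2, ACS11, WAK1 and WRKY70 in each of the 39 libraries, by treatment and time; lines join the means of the log2 values of 3 libraries. The first 4 genes peak in L-Glu at 12 h above SA and urea, while WAK1 in SA lies above its L-Glu values from 6 h on.

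Of 10 surface receptors and kinases, 4 were higher in L-Glu than in urea at 6 h and 4 higher in SA. None was lower in either, and WAK1 and WAK2 were in both counts. The L-Glu count is no larger a share than the 52% of the 150. In L-Glu against SA, 4 were higher and 3 lower, or 4 and 4 without L-Glu replicate 2. The wall-associated kinases WAK1, WAK2 and WAK3 bind pectin, and the measured table held 5 genes named so. WAK1 had 157, 164 and 117 in L-Glu at 6 h, 88.1, 194 and 158 at 12 h, 19.5, 17.8 and 20.7 at 24 h and 3.08, 3.73 and 5.86 at 48 h. In SA it had 1748, 1432 and 1433 at 6 h and 2287, 1944 and 2137 at 48 h. Its SA libraries lay far above its L-Glu libraries throughout. The difference of L-Glu from urea at 6 h was 1.02 (SE 0.337, adjusted p = 0.0428), and SA minus urea was 4.42 (SE 0.337, adjusted p = 3.64e-12) by limma. Without L-Glu replicate 2 the first was 0.93 (adjusted p = 0.101), no longer called. WAK2 rose by 1.58 (adjusted p = 3.16e-04) in L-Glu and 3.13 (adjusted p = 6.07e-10) in SA, and L-Glu minus SA was -1.55 (adjusted p = 1.28e-04). For WAK3 the differences were 1.56 (adjusted p = 0.207), not called, and 3.43 (adjusted p = 6.91e-04).

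Among 4 cysteine-rich receptor-like kinases, CRK4 rose in SA by 2.89 (adjusted p = 4.57e-08) and had 0.94 (adjusted p = 0.0706) in L-Glu, not called, or 1.11 (adjusted p = 0.0439) without replicate 2. CRK7 rose in L-Glu by 2.35 (adjusted p = 0.0486), or had 2.05 (adjusted p = 0.131) without replicate 2, and at 24 h its L-Glu libraries were spread over 11.3, 118 and 8.67. HERK1, a receptor kinase of cell elongation, rose in L-Glu by 0.82 (adjusted p = 0.00348). RLP23, which recognises a peptide of microbial NLP toxins, had differences of 0.35 (adjusted p = 0.763) in L-Glu and 0.85 (adjusted p = 0.241) in SA at 6 h, and it was not called in either. Of 3 nucleotide-binding resistance genes, AT4G09420 rose in L-Glu by 1.92 (adjusted p = 4.13e-05). AT4G19530 was lower in SA, with a difference of -0.94 (adjusted p = 0.0479), and it had 0.69 (adjusted p = 0.25) in L-Glu, not called, or 1.34 (adjusted p = 0.00279) without replicate 2. Related receptor genes can share reads, and the sources used here do not describe how such reads were counted, which leaves values of close copies uncertain.

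Of 6 genes of salicylate output and systemic defence, all 6 were higher in L-Glu than in urea at 6 h, and 5 of them were also higher in SA. PR1, the common marker of salicylate signalling, showed the largest gap between the treatments. In L-Glu it had 42.5, 74.8 and 2.92 at 6 h and 6.25, 24 and 6.77 at 12 h, against 0, 2.23 and 0.996 and 1.82, 19.3 and 0 in urea. The urea and L-Glu libraries overlapped at 12 h and not at 6 h. In SA it had 4916, 4335 and 4416 at 6 h, 13520, 12950 and 13360 at 12 h and 21460, 25170 and 30310 at 48 h. L-Glu minus urea at 6 h was 3.66 (SE 0.86, adjusted p = 0.00332), SA minus urea 11.25 (SE 0.86, adjusted p = 3.75e-12) and L-Glu minus SA -7.60 (SE 0.86, adjusted p = 2.11e-08) by limma. PR1 passed the level limit of the rule with a 12 h L-Glu mean of just over it. From 12 to 24 h its mean of log2(value + 1) changed by -0.55 in L-Glu and by 2.43 in urea. For this gene the narrowing therefore lay mostly in the urea libraries, which at 24 h had a mean of 23.92 ± 16.3 (SD, n = 3). All its L-Glu values lay below all its SA values.

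WRKY70 had 90.4, 80.8 and 139 with urea at 6 h, 810.1, 386 and 1249 with L-Glu and 3314, 3023 and 3305 with SA, without overlap between the groups. It rose by 2.85 (SE 0.362, adjusted p = 9.51e-07) in L-Glu and 4.98 (SE 0.362, adjusted p = 1.23e-12) in SA. At 12 h L-Glu held 3599, 4007 and 4827 and at 24 h 2074, 8624 and 3144, where replicate 2 was above every 12 h library. At 48 h it held 779, 1574 and 1183. From 12 to 24 h the mean of log2(value + 1) of WRKY70 changed by -0.1 in L-Glu and by 1.3 in urea. The narrowing by 24 h therefore lay mostly in the urea libraries. WRKY60, a relative that interacts with other WRKY factors in defence, rose by 1.78 (adjusted p = 3.14e-05) and 2.18 (adjusted p = 2.68e-07).

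The lipid-transfer proteins were higher in L-Glu than in SA at 6 h, and their L-Glu means fell below their SA means by 48 h. AZI1, which primes systemic immunity, had 2373, 2700 and 3285 in L-Glu at 12 h, 415, 927 and 432 at 24 h and 43.6, 74.5 and 110.5 at 48 h. Urea at 48 h held 2395, 1319 and 2133 and SA 1712, 2312 and 2151, all above the L-Glu libraries of that time. At 6 h AZI1 rose in L-Glu by 1.32 (SE 0.302, adjusted p = 0.00255), and in SA it had 0.41 (adjusted p = 0.325), not called. Its neighbour EARLI1 rose by 2.74 (SE 0.384, adjusted p = 4.43e-06) in L-Glu and 1.15 (adjusted p = 0.0219) in SA. The related AT4G12490 had 162, 509 and 230.1 in L-Glu and 4.75, 4.47 and 0.091 in urea at 12 h, and at 6 h it rose by 4.95 (SE 0.689, adjusted p = 3.99e-06) in L-Glu and 2.80 (adjusted p = 0.00207) in SA. At 6 h all 3 were higher in L-Glu than in SA by limma, by 0.90 (adjusted p = 0.0195), 1.59 (adjusted p = 0.00152) and 2.15 (adjusted p = 0.015). Without L-Glu replicate 2, AT4G12490 had 1.69 (adjusted p = 0.0865) and was no longer called. These close relatives can share reads.

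Hormone genes were mostly higher in L-Glu than in SA. Of 13 genes of hormone synthesis, breakdown and response, 12 were so at 6 h and 1, LOG5, was lower, a call lost without L-Glu replicate 2. Against urea, 8 rose in L-Glu (10 without replicate 2), and in SA 2 rose and 2 fell. ACS11 makes the direct precursor of ethylene. Its values were 2.60, 3.26 and 5.99 in urea at 6 h and 696, 25.8 and 510.2 in L-Glu, where replicate 2 was far below the others but still above urea. The course in L-Glu went on to 2091, 1745 and 1542 at 12 h, 582, 702 and 391 at 24 h and 52.8, 46.5 and 83.4 at 48 h. It rose by 5.48 (SE 0.798, adjusted p = 8.26e-06) at 6 h by limma, or 6.97 (adjusted p = 1.68e-09) without replicate 2. In SA at 6 h it was above urea by 2.11 (adjusted p = 0.0439). Its SA mean of 20.16 was near the mock mean of 19.12, while urea at 6 h had 3.952.

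CYP707A3 had 28.6, 9.47 and 37.97 in urea at 6 h and 867, 30.7 and 503 in L-Glu, where replicate 2 fell within the urea range. The difference was 3.39 (SE 0.918, adjusted p = 0.0113) by limma, and 4.85 (adjusted p = 7.75e-05) without replicate 2. Its L-Glu values were 4443, 3158 and 4053 at 12 h, 4298, 3724 and 3193 at 24 h and 391, 336 and 858 at 48 h. Urea held 35.5, 16.9 and 124 at 24 h, all below the L-Glu libraries. From 12 to 24 h its mean changed by -0.05 log2 units in L-Glu and by 1.79 in urea, so for this gene the narrowing lay in the urea libraries. ABA4, an enzyme on the way to abscisic acid, rose by 0.97 (adjusted p = 0.0114) at 6 h. MAKR6, of a family of membrane-associated kinase regulators, had 25.98, 37.4 and 42.97 in urea and 1363, 109 and 1033 in L-Glu at 6 h, all L-Glu libraries being higher. It rose by 3.91 (SE 0.506, adjusted p = 1.28e-06). It then fell from 1536, 1087 and 1242 at 12 h to 131, 148 and 71.3 at 24 h and 12.4, 11.6 and 15.3 at 48 h.

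YUC5, a flavin monooxygenase of auxin synthesis, rose by 3.23 (adjusted p = 1.60e-05) at 6 h, and BEE1, a brassinosteroid-responsive bHLH factor, by 1.97 (adjusted p = 0.00355). GASA1, whose promoter is given above, rose by 2.23 (SE 0.244, adjusted p = 6.79e-08) in L-Glu and had -0.58 (adjusted p = 0.07) in SA, not called. AT5G14920 rose by 1.5 (adjusted p = 8.99e-04) in L-Glu and fell in SA, with a difference of -1.68 (adjusted p = 8.44e-05). LOG5, which activates cytokinin, rose in SA by 1.46 (adjusted p = 0.00936) and had 0.11 (adjusted p = 0.917) in L-Glu, not called.

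Of 21 transcription factors, 12 were higher in L-Glu than in urea at 6 h and 15 higher than in SA. Without L-Glu replicate 2 these counts were 15 and 14. The 12 lie near the 52% of the 150 higher than in urea. The bHLH gene AT3G21330 had the highest difference among them. Its L-Glu values were 212, 22.5 and 213 at 6 h, 251, 227 and 212 at 12 h and 17.4, 20.4 and 14.9 at 24 h, against 1.08, 7.36 and 0 in urea and 3.45, 0.342 and 1.32 in SA at 6 h. All L-Glu libraries at 6 h lay above the urea and SA libraries, with a difference of 5.30 (SE 0.743, adjusted p = 4.39e-06) from urea. RAV1 had 85.2, 102 and 126 in urea and 1187, 131 and 706 in L-Glu at 6 h, and 3015, 2456 and 3317 at 12 h. It rose by 2.21 (SE 0.394, adjusted p = 1.45e-04), or 3.14 (adjusted p = 4.47e-11) without replicate 2.

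LBD11, of the lateral organ boundaries family, rose by 3.14 (adjusted p = 0.00145, limma) and ERF11, a repressor of ethylene synthesis genes, by 3.08 (adjusted p = 0.00125). From 12 to 24 h LBD11 changed by -0.66 log2 units in L-Glu and by 1.17 in urea, and ERF11 by -0.13 and 1.41. WRKY58 rose by 1.59 (adjusted p = 0.0175) in L-Glu and 2.03 (adjusted p = 8.21e-04) in SA, and NAC047 by 0.73 (adjusted p = 0.0429) and 1.25 (adjusted p = 1.37e-04). WRKY49 rose by 1.33 (adjusted p = 0.0303) in L-Glu and had -1.03 (adjusted p = 0.0582) in SA, not called. By a match to gene name or product text, the 150 genes held 5 of 88 measured genes annotated as bHLH factors. They held 4 of 60 annotated as WRKY factors and 3 of 54 as AP2/ERF factors. They also held 4 of the 11 genes named NRT and 3 of the 5 named WAK. Factors without such words in their annotation are missed by these counts. The families were picked after the members were seen, so the counts are a description.

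The cell wall genes had a median difference from urea of 0.93 at 6 h. Of 10, 3 were higher in L-Glu than in urea at that time, or 6 without L-Glu replicate 2, and in SA 1 was higher and 3 were lower. MIOX2 had 170, 179 and 149.9 with urea at 6 h, 1052, 338 and 1284 with L-Glu and 504, 874 and 382 with SA. Both treatments lay above urea without overlap, and the differences were 2.21 (SE 0.349, adjusted p = 2.75e-05) and 1.73 (SE 0.349, adjusted p = 2.46e-04) by limma. In L-Glu it went from 3798, 5584 and 4567 at 12 h to 543, 1077 and 377 at 24 h and 241, 289.6 and 216 at 48 h. ATPMEPCRB, a pectin methylesterase, rose by 2.71 (SE 0.421, adjusted p = 2.12e-05) at 6 h and had 693, 628 and 589 at 12 h and 95.7, 105 and 82.8 at 24 h in L-Glu. The expansin EXPA14, which loosens walls, fell in SA, with a difference of -2.27 (adjusted p = 0.00504), and had 1.14 (adjusted p = 0.273) in L-Glu, not called.

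The gene with the highest score was AT2G17740, 1 of 6 in the set annotated as cysteine- and histidine-rich C1 domain proteins, of 89 measured genes so annotated. It had 398, 869 and 235 in L-Glu at 12 h and 76.05, 355 and 14.7 at 24 h, so the libraries were widely spread at 24 h. In urea it rose meanwhile, from 42.7, 55.1 and 23.7 to 105, 83.2 and 53.6. At 6 h it rose in L-Glu by 2.84 (SE 0.587, adjusted p = 8.50e-04). AT1G60060, a kinase-like protein second by score, had 0.24 (adjusted p = 0.742) at 6 h, not called. AT3G50140 rose by 1.84 (adjusted p = 0.0197) in L-Glu and 1.88 (adjusted p = 0.00759) in SA by limma. Its means were low, with 1.56 in urea, 8.705 in L-Glu and 9.142 in SA at 6 h, and 5.925 in mock. AT2G28140 rose by 1.88 (adjusted p = 0.0457) in L-Glu, with -0.99 (adjusted p = 0.249) in SA, not called. The glutathione transferase GSTF14 had 143, 116 and 128 in mock and 17.9, 40.2 and 18.99 in urea at 6 h, a difference of -2.37 (SE 0.647, adjusted p = 0.0485) by limma. CML41, a calmodulin-like protein that gates plasmodesmata in defence, rose in L-Glu at 6 h by 2.64 (adjusted p = 2.15e-05).

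A small group was called in opposite directions in the treatments at 6 h. Of the 150 genes, 9 (6%) were higher in L-Glu and lower in SA than in the shared urea libraries, against 0.33% of all genes. Without L-Glu replicate 2 the count was 10, these 9 included, against 0.615% of all genes. The set was rich in genes higher in L-Glu at 6 h, with 52% against 8.36% of all genes. Its share lower in SA, 12.7%, was near the 13.5% of all genes and above the 6.13% of the other candidates. The 9 are therefore not read as an excess over what these shares give, which was not tested. Among the 9 are NRT1:2, AT5G14920, the wall protein sks5 and the C1 domain gene AT3G50010. The gene with the widest gap was AT3G50340, with 29.97, 21.8 and 17.99 in urea, 172, 19.1 and 126 in L-Glu and 2.51, 9.36 and 7.44 in SA. L-Glu replicate 2 fell within the urea range, and every SA library lay below urea. The difference from urea was 1.68 (adjusted p = 0.0362) in L-Glu and -1.82 (adjusted p = 0.01) in SA. Other genes were called lower in SA and not called in L-Glu. IGMT4, which methylates indole glucosinolates, had 424, 288 and 493 in urea and 96.3, 99.8 and 107 in SA at 6 h, a difference of -1.95 (SE 0.29, adjusted p = 2.83e-06), against 0.09 (adjusted p = 0.898) in L-Glu. AT5G54020, a C1 domain gene, and AT1G33440, a major facilitator transporter, also fell in SA, with differences of -2.04 (adjusted p = 0.00148) and -2.10 (adjusted p = 0.00824).

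Within SA, few of the 150 genes, and few of all genes, were called between neighbouring times. From 6 to 12 h limma called none of the 150 genes higher or lower, against 0.195% and 0.325% of all genes. At an unadjusted p below 0.05 the counts were 9 and 7. The fit used 1 spread per gene over all 13 groups, so a missing call does not show a steady level. PR1 was not called, though its SA mean was 4555 ± 315 at 6 h and 13280 ± 297 at 12 h (SD, n = 3). From 12 to 24 h it called 1 higher and none lower, against 0.44% and 1.4% of all genes, with 8 and 3 at the unadjusted level. That gene was AT1G33790, a jacalin lectin, with 248, 209 and 199.6 at 12 h and 393, 412 and 393 at 24 h, a difference of 0.87 (SE 0.205, adjusted p = 0.0157). Comparing means of log2(value + 1) alone, 90 of the 150 were higher in SA at 48 h than at 6 h. The group median of the set went from 4.52 at 6 h to 5.01 at 48 h. The mean of PR1 went from 4555 to 25650 over that time and that of WAK3 from 18.1 to 114, and 48 h was not tested against 6 h. For 21 genes, WAK1, CRK4, PR1 and RLP23 among them, some SA group had a higher mean of log2(value + 1) than L-Glu at 12 h. Urea at 6 h against mock at 0 h cannot tell treatment from time. In that comparison, at the unadjusted level 6 were higher and 27 lower. After adjustment none of the 150 was higher and 5 (3.33%) were lower, against 1.22% and 0.545% of all genes. Beside NRT1.8 and GSTF14, these were AT1G35350 with a difference of -1.47 (adjusted p = 0.00313), AT4G29310 with -1.40 (adjusted p = 0.0201) and sks5 with -1.13 (adjusted p = 1.43e-04).

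**Figure D5:**
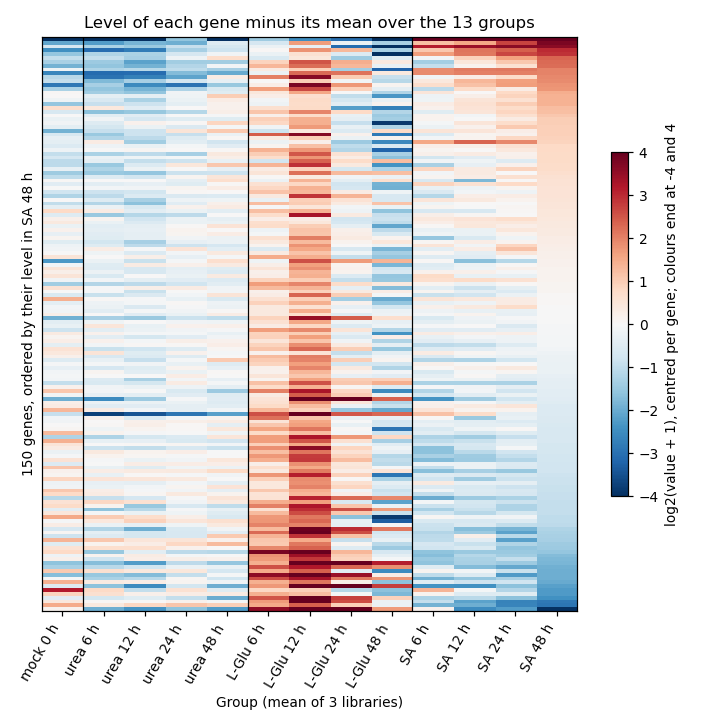
Group means of log2(value + 1) for the 150 genes (rows, ordered by SA at 48 h) in the 13 groups (columns), centred on each gene's mean over the groups, with colours ending at -4 and 4. L-Glu at 12 h is the group the rule raised; the SA columns range from above to below the gene mean, and PR1 and WAK1 are among the genes highest in SA.

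Other genes of the same pathways are counted here without the members, whose 12 and 24 h values chose them. Of all genes, 8.36% were called higher and 3.15% lower in L-Glu than in urea at 6 h. These shares were 25.8% and 21.9% at 12 h and 29.3% and 31.3% at 24 h. Of 17 salicylic and pipecolic acid genes, 11 were higher in L-Glu than in urea at 6 h and none lower, or 13 without L-Glu replicate 2. At 12 and 24 h the same 16 were higher. Their difference was called as rising from 12 to 24 h in 2 genes and falling in 1, where 6.77% of all genes rose and 10.9% fell. The isochorismate synthase gene EDS16 was higher in L-Glu at 12 h by 6.08 (adjusted p = 3.73e-16, limma), and its change to 24 h was 0.81 (adjusted p = 0.252). For SARD1, a factor that switches EDS16 on, these values were 6.14 and 0.95 (adjusted p = 0.148). NPR1 went up further, by 1.32 (adjusted p = 1.26e-05), and PAD4, a lipase-like defence regulator, came down, with a change of -1.05 (adjusted p = 0.0267), a call lost in 5 of 12 fits that left out 1 library.

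Of 16 ethylene genes, 6 were called higher and none lower in L-Glu at 6 h (8 without replicate 2), 10 and 1 at 12 h, and 9 and 1 at 24 h. From 12 to 24 h no change was called in the ACC synthase genes ACS2, ACS6, ACS7 and ACS8. ACS2 was higher at 12 h by 9.29, and its change to 24 h was 1.59 (adjusted p = 0.223, limma). For ACS6 the pair was 7.33 and -0.03 (adjusted p = 0.987), for ACS7 6.57 and 0.35 (adjusted p = 0.756), and for ACS8 10.15 and 0.50 (adjusted p = 0.781). Of 16 abscisic acid and drought genes, 4 were higher and none lower at 6 h, 4 and 3 at 12 h, and 8 and 2 at 24 h. The 12 h counts lie near the shares of all genes, 25.8% and 21.9%, so nothing is read from them. CYP707A1, which has the same activity as CYP707A3, was higher at 12 h by 4.47 with a change of -0.24 (adjusted p = 0.83). AAO3, the last enzyme of abscisic acid synthesis, went from 3.31 up by 2.07 (adjusted p = 3.13e-04).

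Of 24 nitrogen uptake and assimilation genes, 4 were higher and 6 lower in L-Glu at 6 h (3 and 5 without replicate 2), 6 and 12 at 12 h, and 5 and 15 at 24 h. The 6 higher at 12 h lie near the share of all genes, 25.8%. From 12 to 24 h the difference went down in 7 and up in 1, against 10.9% and 6.77% of all genes. GLU1, a glutamate synthase, had a difference of -0.93 at 6 h (adjusted p = 0.00107) and -2.15 at 12 h (adjusted p = 4.01e-11, limma) and changed by -3.33 to 24 h (adjusted p = 7.45e-11). GS2, the chloroplast glutamine synthetase, had -0.57 at 6 h (adjusted p = 0.0362), -1.02 at 12 h and a change of -2.52 (adjusted p = 5.66e-09). The nitrate reductase gene NIA2 had 0.01 at 12 h and then changed by -2.55 (adjusted p = 7.28e-05). GAD4, a glutamate decarboxylase, was higher by 5.87 and rose by a further 2.43 (adjusted p = 0.0102). Over these hours the photosynthetic shoot markers were lower in L-Glu as given above, with 11 of the 12 called lower than in urea at 12 h and all 12 at 24 h, when 29.3% of all genes were called higher and 31.3% lower. Their part in these values was not tested.

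Some of the 150 genes lie side by side. Genes were counted in order along the chromosomes over the protein-coding genes of the annotation, measured or not. Of the 148 placed genes, 11 were direct neighbours of another member, in 5 runs. These were WAK1 with WAK2, AZI1 with EARLI1, GATL2 with CML41, WRKY49 with GDPD3, and HEC2 with AT3G50340 and AT3G50350. Within 5 genes of another member lay 20 genes in 8 runs. No matching share over all genes or the other candidates was computed, so no clustering is read from these counts. The WAK1 and WAK2 pair and the AZI1 and EARLI1 pair are related copies, and how reads common to them were counted is not known.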

How the data were processed

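RNA was measured by RNA-Seq in 39 libraries. The deposited table holds normalized values (signal per gene) made by the authors, and the labels do not say how they were scaled. Per the submitters' processing notes, edgeR 3.22.3, HTSeq 0.6.0 and TopHat2 2.1.0 were used with TAIR10, without a stated role for any of them. No source used here says whether counting used strand. The deposited values are not whole reads, so no count test was run and the depth is unknown.

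A pseudocount of 1 was added, values were taken to log2, and 13 group means were fitted to all 39 libraries with limma 3.58.1 in R 4.3.3, with 26 residual degrees of freedom and a trend in the variance. Genes needed a value of at least 1 in 3 libraries, which all 20001 passed, the members included. P-values were Benjamini-Hochberg adjusted over 20001 genes, and a gene was called below 0.05. The fit was checked on simulated data. RefSeq's TAIR10.1 gave names for 19887 genes and for 149 of the 150. ATCG00360 had no match.

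The members and the gene lists were chosen with earlier results of these data known, and roles, families and motifs were grouped after the members had been seen. Genes were named by score, by level in L-Glu at 12 h, by the largest tested differences and by list membership; others were added after their values were seen to show their role group. Alternatives were another pseudocount, scaling or filter, fits of the compared groups alone, a replicate block and each library left out.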

Additional observations from a re-analysis of the deposited data

Results flagged for a closer look

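At 6 h, 9 of the 150 genes were called higher in L-Glu and lower in SA than in the urea libraries that both comparisons share, and the difference between the treatments was itself called in all 9 (limma, adjusted over 20001 genes). Of all genes, 0.33% were called in these opposite directions. That share is not a like background, since 52% of the 150 and 8.36% of all genes were higher in L-Glu than in urea at 6 h. For genes lower in SA the shares were 12.7% and 13.5%, with 6.13% of the other candidates. No excess is read from the 9. The widest gap was that of AT3G50340, where L-Glu minus SA was 3.5 (adjusted p = 4.90e-06). The gibberellin-regulated AT5G14920 followed with 3.18 (adjusted p = 1.20e-09) and AT1G67900, of the NPH3 family of phototropic signalling, with 3.01 (adjusted p = 7.68e-07). AT3G50010, a C1 domain gene, had 2.19 and the ARM repeat gene AT1G23030 2.09. For NRT1:2 the difference was 1.97, for the mitochondrial carrier family gene AT3G51870 1.83, for AT1G19835 1.63 and for sks5 1.2. L-Glu and SA were given at different doses.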

How the results depend on the processing

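When each library was left out in turn, genes higher in L-Glu than in urea at 6 h numbered 48 to 92, and those lower in SA than in urea 12 to 17. Genes lower from SA 6 to 12 h numbered 0 to 1, higher from SA 12 to 24 h 0 to 1, and in urea at 6 h against mock 0 to 1 were higher and 3 to 4 lower. Fits of the compared groups alone called 4 higher and 1 lower from SA 6 to 12 h, 4 higher and 1 lower from 12 to 24 h, and 1 higher and 13 lower in urea against mock; the last comparison had 2 higher with a pseudocount of 0.25 and 2 with quantile normalization. Correlations of deviations between same-numbered libraries ran from -0.0397 to 0.125, so the numbers were not treated as pairs. With the number as a replicate block, 82 genes were higher in L-Glu than in urea at 6 h, and 7 were lower in urea than in mock. Of the 25 tests with the highest or lowest differences, none changed direction, and 5 lost their call under some alternative (AT1G33440 and AT3G50340 in SA, AT1G33790, GSTF14 and AT4G29310).

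The choice of genes depends on scaling. The rule took 136 and 124 of the same 150 genes with pseudocounts of 0.25 and 4, 106 with all libraries scaled to 1 total, 120 with quantile normalization and 148 with trimmed-mean scaling. With 1 library left out it took 118 to 148. Scaling to 1 total moved the median of all genes in L-Glu against urea at 24 h from -0.10 to -1.10, and that of the 150 from 0.14 to -0.79. In all, 51 genes were taken under all 25 settings, and of these 62.7% were higher in L-Glu than in urea at 6 h. The depth is unknown, and genes with low values have the least certain differences.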
